A study of Spongilla lacustris with 18 samples.

Results

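The sponge gene c93335-g1 is annotated in the deposited table as a relative of the vertebrate transcription factors NFATC1, NFATC2, NFATC3 and NFATC4, the nuclear factors of activated T-cells. It was taken as the row whose identifier starts with c93335-g1, together with any other row whose annotation holds NFATC1 to NFATC4 or NFAT5 as a whole word. The search found 1 gene among 39562, marked as a 1-to-4 match, so 1 annotated sponge gene is matched to the 4 vertebrate ones. Only 7922 of the genes carry a usable symbol, so a relative without such an annotation would have been missed. The gene was chosen by its measured difference between tryptamine and DMSO after 1 h of exposure, so its values at 1 h are given as a description without a test. The difference that chose the gene did not use the libraries taken at 4 h and after recovery, and tests are reported there. Earlier results of these data were known when the gene was chosen, so these tests are not independent of that knowledge. The fit also takes its estimate of spread from all 18 libraries, those of 1 h included.

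The samples were whole bodies of wild type juvenile Spongilla lacustris, a freshwater sponge without neurons or muscle, raised for 9 days at 18 °C. The groups, each of 3 polyA libraries, were 37.5 µM tryptamine for 1 h and 0.03% DMSO for 1 h, tryptamine for 4 h and DMSO for 4 h, and tryptamine or DMSO for 4 h followed by washout and 24 h of recovery. Tryptamine is a monoamine made by decarboxylation of tryptophan, and it was dissolved in DMSO. The number of sponges per library, their clone of origin and what a shared replicate number means are not given in the sources used here, so the p-values measure the spread between these libraries, part of which may be technical. Counted read pairs per library numbered between 11379345 and 23769406, with the largest number in DMSO 1 h replicate 2 and the next largest at 15798197.

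NFAT proteins couple calcium to transcription in vertebrates. Calcium released from stores or entering the cell binds calmodulin, calmodulin activates the phosphatase calcineurin, and calcineurin strips phosphates from NFAT, which then enters the nucleus and binds DNA, often beside a partner factor. Kinases of the GSK3, DYRK and casein kinase 1 families put the phosphates back, and exportin carries NFAT out again. The DNA-binding part of NFAT belongs to the Rel homology family, which it shares with NF-kappa-B. The activity of these proteins is set largely by phosphorylation and location, and RNA sequencing measures transcript level alone.

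In both groups exposed to tryptamine at the time of sampling the NFATC gene was low, and in both time-matched DMSO groups it was several-fold higher, whereas after washout and recovery both arms were low and overlapped. Levels are given as TMM-scaled CPM, counts scaled to a common library total after a correction for library composition. The gene is a low-level one, with 649 counts over the 18 libraries and between 6 and 221 in a single library. A level of 3 counts, the floor used here, corresponded to 0.134 to 0.283 CPM, and every library lay above it.

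At 1 h the level was 0.595, 1.74 and 1.19 CPM in tryptamine replicates 1, 2 and 3, against 3.21, 9.90 and 2.69 CPM in the DMSO replicates. The groups did not overlap, which was true with tryptamine lower of 6.18% of the 24125 genes tested, a share from which nothing is read because this comparison chose the gene. Replicate 2 was the highest of its group in both arms. The means were 1.17 ± 0.57 CPM with tryptamine and 5.27 ± 4.02 CPM in DMSO sponges (SD, n = 3 each), and the fitted log2 difference was -2.18 (SE 0.52). Without DMSO replicate 2, the library of highest level, the log2 difference was -1.32 (SE 0.46).

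**Figure D1:**
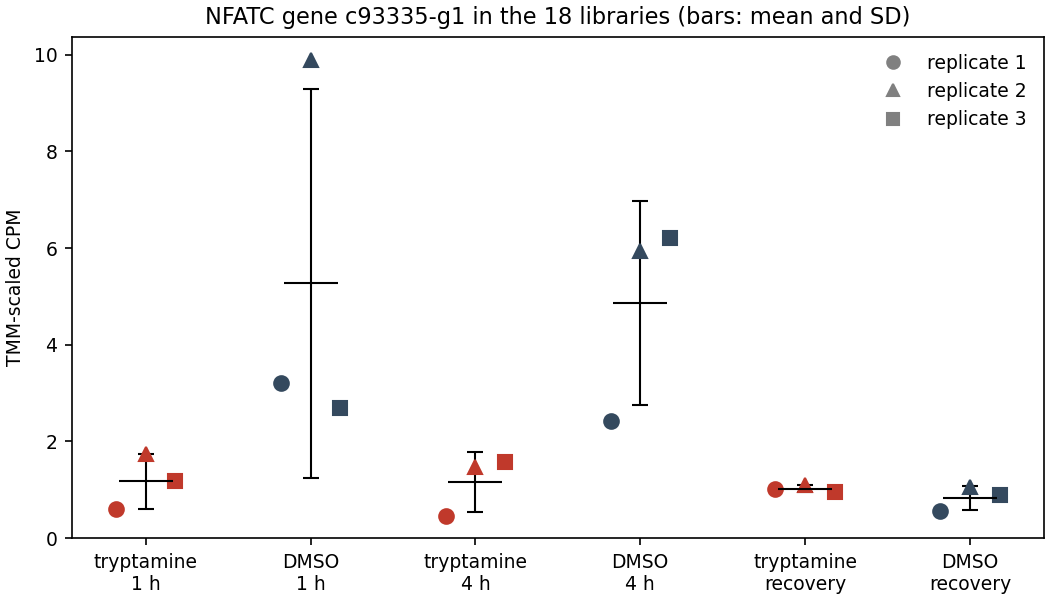
Level of the NFATC gene c93335-g1 in TMM-scaled CPM (vertical axis) in the 18 libraries, by treatment and time, with red for tryptamine and dark blue for DMSO, symbols for replicate numbers, and lines for the mean and SD of 3 libraries. The 6 DMSO libraries of 1 h and 4 h lie between 2.43 and 9.90 CPM, above the other 12, which lie between 0.448 and 1.74 CPM. The 1 h libraries chose the gene, so this split is a description only.

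At 4 h the same direction was measured, in libraries whose values did not enter the difference that chose the gene. The level was 0.448, 1.47 and 1.57 CPM in tryptamine replicates 1, 2 and 3, against 2.43, 5.94 and 6.21 CPM in the DMSO replicates. All tryptamine libraries lay below all DMSO libraries, as they did for 7.34% of the genes tested. Replicate 1 was the lowest of its group in both arms. The means were 1.16 ± 0.62 CPM with tryptamine and 4.86 ± 2.11 CPM in DMSO sponges (SD, n = 3 each).

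The log2 difference at 4 h was -2.08 (SE 0.54, 95% interval -3.22 to -0.94), a tryptamine level 0.236 times that in DMSO. Of the genes tested, 0.705% had a difference as low or lower. In the edgeR quasi-likelihood test with Benjamini-Hochberg adjustment over all genes tested the difference missed the threshold of 0.05 (adjusted p = 0.0675, rank 441 by p), where 1.27% of genes were called lower. Blocking on the replicate number, it passed (log2 difference -2.09, SE 0.37, adjusted p = 0.00408), and it also passed in DESeq2 (adjusted p = 0.00947), while limma-voom gave 0.123. The block was fitted over all 18 libraries and takes the same shift for a replicate number at every time. Its result at 4 h rests on that assumption and draws in part on the 1 h libraries, which chose the gene. With the 4 h groups compared alone, the edgeR test missed the threshold (log2 difference -2.09, SE 0.48, adjusted p = 0.0708). Within each replicate number the DMSO level was 5.41, 4.04 and 3.97 times the tryptamine level. An exact two-sided permutation test on the log2 CPM gave p = 0.1, the smallest that 3 against 3 libraries allow.

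Leaving out DMSO 4 h replicate 1, the lowest DMSO library, brought the test past the threshold (-2.40, adjusted p = 0.0225), and leaving out any other single library of the comparison did not, with adjusted p up to 0.221. The direction was the same without each of the 6 libraries, with log2 differences of -2.40 to -1.68. Counting error in single libraries was wide: tryptamine replicate 3 had 19 counts with a 95% Poisson interval of 0.942 to 2.44 CPM, and DMSO replicate 1 had 27 counts with 1.60 to 3.53 CPM. Such intervals cover counting error only. In whole bodies, fewer cells that carry the transcript and less transcript per cell cannot be told apart.

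After recovery the level was 1.02, 1.10 and 0.962 CPM in tryptamine replicates 1, 2 and 3, against 0.555, 1.05 and 0.885 CPM in the DMSO replicates. The groups overlapped, and the tryptamine libraries differed less among themselves than those of any other group, with an SD of 0.0668 CPM around a mean of 1.03 CPM. They had 13, 15 and 14 counts, with 95% Poisson intervals of 0.544 to 1.75, 0.613 to 1.81 and 0.526 to 1.61 CPM. That counting error is wider than the measured spread, so nothing is read from the small SD. The DMSO mean was 0.83 ± 0.25 CPM (SD, n = 3). The log2 difference was 0.30 (SE 0.63, edgeR adjusted p = 0.86) with a 95% interval of -1.03 to 1.62. As a ratio of tryptamine to DMSO this interval runs from 0.49 to 3.08.

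The gene also differed between the times of the vehicle arm. DMSO sponges had 0.83 ± 0.25 CPM after recovery and 4.86 ± 2.11 CPM at 4 h (SD, n = 3 each), or -2.54 on the log2 scale (SE 0.55, 95% interval -3.71 to -1.37, edgeR adjusted p = 0.0101). All recovery libraries lay below all 4 h libraries, as for 13.4% of the genes tested, and 4.33% of genes were called lower in this comparison. The call was lost without DMSO recovery replicate 1 (-2.33, adjusted p = 0.0601) and passed without each of the other 5 libraries, with adjusted p of 0.00346 to 0.0482. This comparison shares its 4 h libraries with that of tryptamine against DMSO at 4 h.

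In the tryptamine arm no difference between the times passed the test. Its sponges had 1.03 ± 0.07 CPM after recovery and 1.16 ± 0.62 CPM at 4 h (SD, n = 3 each), or -0.16 on the log2 scale (SE 0.61, edgeR adjusted p = 0.92) with a 95% interval of -1.45 to 1.13, in a contrast where 4.85% of genes were called. The sign depended on the setting, with 0.13 without tryptamine 4 h replicate 3, 0.028 without replicate 2 and 0.044 in limma-voom. The direct test of whether the tryptamine effect differed between recovery and 4 h gave a log2 difference of 2.38 (SE 0.83, 95% interval 0.62 to 4.14), which did not pass the adjustment (edgeR adjusted p = 0.304), in a contrast where 0.0953% of genes were called. The block gave 2.41 (adjusted p = 0.0979). The mean of the effects at 4 h and after recovery was -0.89 (SE 0.42, adjusted p = 0.251), where 2.62% of genes were called.

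**Figure D2:**
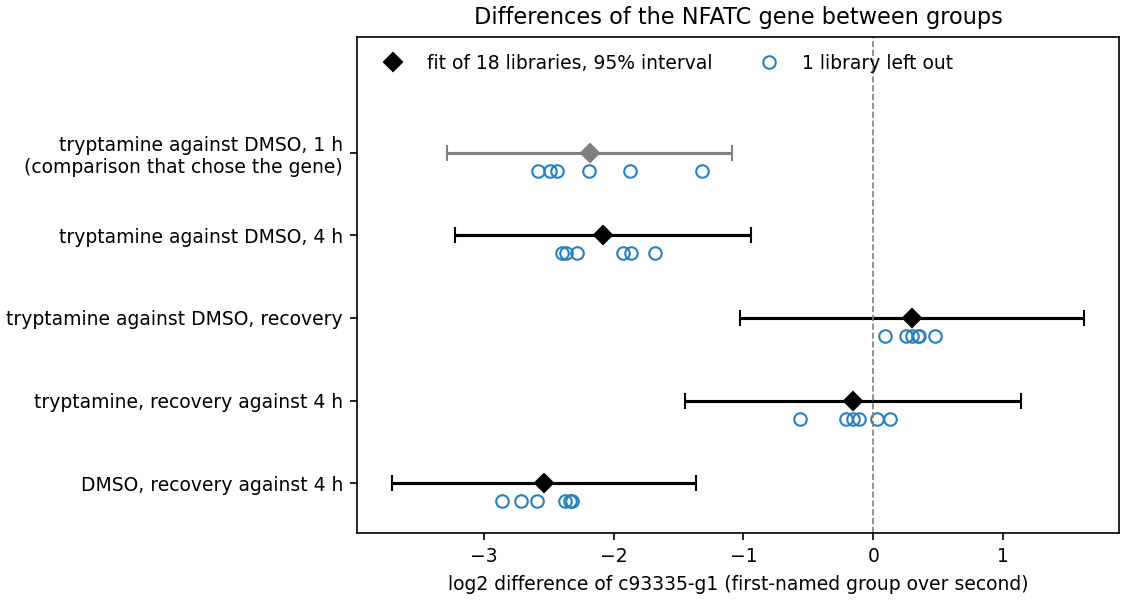
Log2 differences of c93335-g1 (horizontal axis, first-named group over the second) with 95% intervals from the fit to 18 libraries (diamonds), and the same difference with 1 library left out (open circles). The differences at 1 h, in grey because this comparison chose the gene, and at 4 h are -2.18 and -2.08, that after recovery is 0.30, and the fall in DMSO sponges is -2.54.

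Ordered by mean level, the groups ran from DMSO at 1 h with 5.27 CPM and DMSO at 4 h with 4.86 CPM to tryptamine at 1 h with 1.17 CPM, tryptamine at 4 h with 1.16 CPM, tryptamine after recovery with 1.03 CPM and DMSO after recovery with 0.83 CPM. The only neighbours in that order whose libraries did not overlap were DMSO at 4 h and tryptamine at 1 h. That order and that gap include the 1 h libraries, which chose the gene, so they are a description from which nothing is read. Between 4 h and 1 h the log2 differences were -0.04 (SE 0.60) with tryptamine and -0.14 (SE 0.46) with DMSO, given without a test because the 1 h libraries chose the gene. The spread between replicates was large for this gene: its biological coefficient of variation was 41.4%, against a median of 19.4% over the genes tested, and 4.9% of genes had one as high.

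The summed levels of cell type markers are given as a description, since they cannot tell cell number from transcript per cell. Markers of the choanocyte axoneme, the motor of the sponge's feeding cells, summed to 1130 to 1417 CPM with tryptamine and 1172 to 1377 CPM in DMSO sponges at 4 h, over 39 genes. Archaeocyte and germline markers, of the motile stem cells, summed to 1238 to 1860 and 1430 to 1683 CPM over 11 genes, and actomyosin genes of contractile cells to 4701 to 6521 and 5367 to 5617 CPM over 7 genes. None of the genes in these lists was at 0 in all libraries, and the arms overlapped at 4 h in each list. In the DMSO arm the actomyosin sum was 4157 to 4544 CPM after recovery and 5367 to 5617 CPM at 4 h. The sums did not overlap, as 13.4% of single genes tested did not with recovery lower. In the tryptamine arm the actomyosin sum was 3735 to 4303 CPM after recovery and 4701 to 6521 CPM at 4 h, also without overlap. The share of all genes without overlap in that contrast is not given here, so nothing is read from it. The part of the actomyosin sum in the fall of the NFATC gene in DMSO sponges was not tested.

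The gene was among the lowest of its pathway. Compared per length, it averaged 0.612 CPM per kb of summed isoform length over the 18 libraries, and 63 of the 65 tested pathway genes lay above it. The catalytic subunit of calcineurin, PPP3CA to PPP3CC c103570-g1, averaged 190 CPM per kb, and its calcium-binding regulatory subunit, PPP3R1 c24213-g1, 373 CPM per kb. Calmodulin, the calcium sensor, was higher still for both abundant genes, at 1068 CPM per kb for c105055-g1 and 461 for c101992-g1. On the same scale the NF-kappa-B genes c104460-g1 and c104698-g3, relatives within the Rel homology family, averaged 104 and 42.3 CPM per kb.

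Below the NFATC gene in level per kb were the nuclear exporter XPO1 c104378-g1 with 0.197 and the importin KPNA2 c91439-g1 with 0.358. These ranks depend on how reads were counted. Each isoform of the assembly is a separate reference sequence, and pairs that map to more than 1 of them were not counted, so a gene with several similar isoforms may have lost counts. The NFATC gene has 3 isoforms, of 1322, 1307 and 1273 bases, and XPO1 has 8, whereas calcineurin and the calmodulins have 1 each. Per kb of the mean isoform, the NFATC gene stood at 1.83 CPM per kb, above 4.8% of the genes tested, compared with 1.42% on the summed length. The same reference was used for every library, and whether the isoforms differ between groups was not tested.

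**Figure D3:**
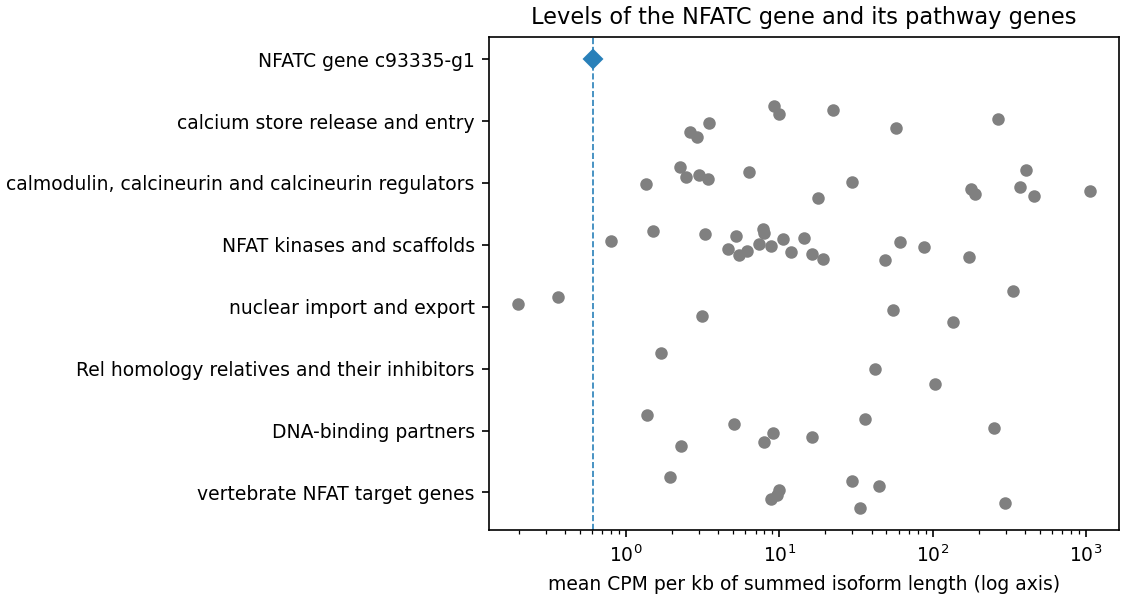
Mean level over 18 libraries in CPM per kb of summed isoform length (horizontal log axis) for the NFATC gene (blue diamond and dashed line) and each tested gene of the pathway lists (grey points). The NFATC gene lies at 0.612, below 63 of the 65 pathway genes, and the calmodulin gene c105055-g1 lies highest at 1068.

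The other genes of the pathway were looked up by symbol in lists ordered by role, from calcium release to target genes. Of 146 symbols 75 matched, giving 69 genes, 65 of them tested, and the other symbols were not analysed here. Several rows carry the same name, with 9 rows named LRRK2 and 4 named CABIN1, and reads shared between similar copies were not counted, so single values in these families are uncertain. NFATC2IP c96354-g1, an interacting protein that is not an NFAT factor, had 7.24 to 12.3 CPM over the 18 libraries, with log2 differences of 0.19, 0.05 and 0.35 at 1 h, at 4 h and after recovery (adjusted p = 0.871, 0.962 and 0.33).

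No pathway gene passed the edgeR test at 1 h or at 4 h. At 1 h edgeR called 0 of 65, with 3 at an unadjusted p under 0.05, and DESeq2 and limma-voom also called 0. Over all genes edgeR called 0% at 1 h, with 1553 of 24125 at an unadjusted p under 0.05, DESeq2 16 genes and limma-voom 0. At 4 h edgeR called 0 of 65, against 1.5% of all genes, and 6 had an unadjusted p under 0.05, as did 11.7% of all genes. At 4 h limma-voom called 0 of 65, while DESeq2 and the replicate block each called 1, RUNX2, where they called 2.51% and 2.33% of all genes. The median log2 difference of the 65 genes was 0.02 at 1 h and 0.04 at 4 h, against 0.02 and 0.00 for all genes tested. At 4 h the NFATC gene stood at -2.08, and the lowest value among the 65 genes was -1.03, for BCL3.

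At 1 h the gene of smallest p among the tested pathway genes was calmodulin c101992-g1, which differed by -0.59 (SE 0.23, edgeR adjusted p = 0.741). It had 279 ± 74.0 CPM with tryptamine and 419 ± 47.3 CPM in DMSO sponges (SD, n = 3 each). IRF4 c78626-g1, a relative of the interferon regulatory factors, differed by -0.63 (adjusted p = 0.744) and RUNX2 c104200-g6 by 0.42 (adjusted p = 0.748). The member of smallest p in each of the other lists at 1 h, LRRK2 c104752-g3, RAN c95205-g2 and BCL3 c93930-g2 among them, had an adjusted p of 0.826 to 0.905.

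Upstream of NFAT, calcium release and entry genes had a median log2 difference of 0.03 at 1 h and -0.01 at 4 h, with 3 of 8 and 5 of 8 negative. PLCG1 c93216-g2, a phospholipase that makes the calcium-releasing messenger, differed by -0.36 at 1 h (SE 0.24, edgeR adjusted p = 0.826). The phospholipase PLCB c103421-g1 differed by -0.21 at 4 h (SE 0.12, adjusted p = 0.549). STIM1 c99589-g1, the sensor of emptied stores, differed by 0.12 at 4 h and the store receptor ITPR c104955-g1 by -0.01. Calmodulin, calcineurin and its regulators had 10 of 14 negative at each of these times, with medians of -0.11 and -0.08. Over all genes tested 11392 of 24125 were negative at 1 h and 11913 at 4 h. Calcineurin itself differed by -0.15 and -0.16 for the catalytic gene c103570-g1. RCAN c80628-g1, whose vertebrate relatives restrain calcineurin and which NFAT induces in mammals, differed by 0.33 at 4 h (SE 0.16, adjusted p = 0.441), at 25.7 ± 4.38 CPM with tryptamine and 20.4 ± 1.10 CPM in DMSO sponges (SD, n = 3 each).

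Kinases and scaffolds that oppose NFAT had 16 of 20 members positive at 4 h with a median of 0.17, and none passed. Over all genes tested 12212 of 24125 were positive at 4 h. Many of the 20 rows carry the name LRRK2 and may be similar copies, so not all members are separate pathway genes. The member of smallest p was the casein kinase CSNK1G1 c103812-g1 (0.54, SE 0.15, edgeR adjusted p = 0.101), which passed without tryptamine 4 h replicate 1 (adjusted p = 0.0208). The kinases GSK3 c103980-g3 and DYRK1A c100135-g2 differed by 0.16 and 0.40 at 4 h. In the Rel homology list BCL3 c93930-g2, a nuclear regulator of NF-kappa-B, had 4.63, 5.53 and 2.31 CPM with tryptamine, against 5.57, 10.9 and 8.89 CPM in DMSO sponges at 4 h. The BCL3 groups did not overlap, as for 7.34% of all genes, with 5.53 CPM as the highest tryptamine and 5.57 CPM as the lowest DMSO value, and the difference missed the threshold (-1.03, SE 0.32, adjusted p = 0.144). The NF-kappa-B genes differed by -0.20 and -0.18 at 4 h.

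Among DNA-binding partners RUNX2 c104200-g6, a Runt domain factor, had 38.6, 31.7 and 26.4 CPM with tryptamine and 25.5, 15.2 and 18.8 CPM in DMSO sponges at 4 h, so the 3 tryptamine libraries lay above the 3 DMSO libraries, as for 6.19% of all genes. Its difference was 0.70 (SE 0.19, edgeR adjusted p = 0.0697), and it passed with the replicate block (0.70, adjusted p = 0.0344) and in DESeq2 (0.71, adjusted p = 0.0287). It also passed without DMSO replicate 1 (adjusted p = 0.0124) or without tryptamine replicate 3 (0.0471), while the other single libraries left it at 0.139 to 0.279. Of the genes that are NFAT targets in vertebrates, CDK4 c93546-g1, a cell cycle kinase, had the smallest p at 4 h (0.60, SE 0.21, adjusted p = 0.228).

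After recovery, when the NFATC gene had similar levels in both arms, 3 of the 65 pathway genes passed the test, against 1.86% of all genes. They were 2 higher and 1 lower, beside 1.36% and 0.497% of all genes. Calmodulin c101992-g1 fell, with 258, 165 and 176 CPM after tryptamine and 497, 359 and 325 CPM after DMSO, or -0.98 on the log2 scale (SE 0.23, edgeR adjusted p = 0.0385). The more abundant calmodulin gene c105055-g1 differed by -0.35 (adjusted p = 0.209). KPNB1 c103339-g1, importin beta, which carries proteins into the nucleus, rose to 312, 283 and 287 CPM after tryptamine, against 164, 187 and 170 CPM after DMSO (0.76, SE 0.16, adjusted p = 0.0324). Cyclin D c101786-g1, which drives entry into the cell cycle, rose to 779, 689 and 542 CPM after tryptamine, against 430, 497 and 368 CPM after DMSO (0.63, SE 0.14, adjusted p = 0.0331). None of the 3 overlapped between arms, as 10.6% of all genes did not with tryptamine lower and 13.4% with tryptamine higher.

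These recovery calls lay near the threshold and depended on single libraries. With the replicate block 5 of the 65 passed, in a fit that called 5.51% of all genes, and in DESeq2 6 did, where 4.78% were called. Calmodulin kept its call without tryptamine replicate 1 alone, KPNB1 without tryptamine replicate 3 alone, and cyclin D without tryptamine replicate 3 or DMSO replicate 2, and without each of the other libraries the adjusted p was 0.062 to 0.197, 0.0545 to 0.177 and 0.103 to 0.177. The nuclear transport genes, which are 4 importins, the exportin XPO1 and the GTPase RAN, had 6 of 6 positive with a median of 0.23, against -0.03 for all genes. Over all genes tested 11441 of 24125 were positive after recovery and 12684 negative. The calcium pump ATP2A c103901-g2, which refills the stores, differed by 0.36 (SE 0.11, edgeR adjusted p = 0.0992) and passed in DESeq2 (adjusted p = 0.0199). DNA-binding partners had 5 of 8 negative with a median of -0.23, and the one of smallest p was CREBBP c94643-g1, a coactivator (-0.50, adjusted p = 0.407). Other rows of that list also carry the name CREBBP, so its members are not all separate genes. Of these, c99408-g3 differed by -0.21, c103782-g10 by -0.64 and c100938-g1, the one with most counts, by 0.06. The NF-kappa-B gene c104698-g3 differed by 0.27 (adjusted p = 0.284) and the kinase DYRK2 c103985-g1 by -0.28 (adjusted p = 0.352).

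**Figure D4:**
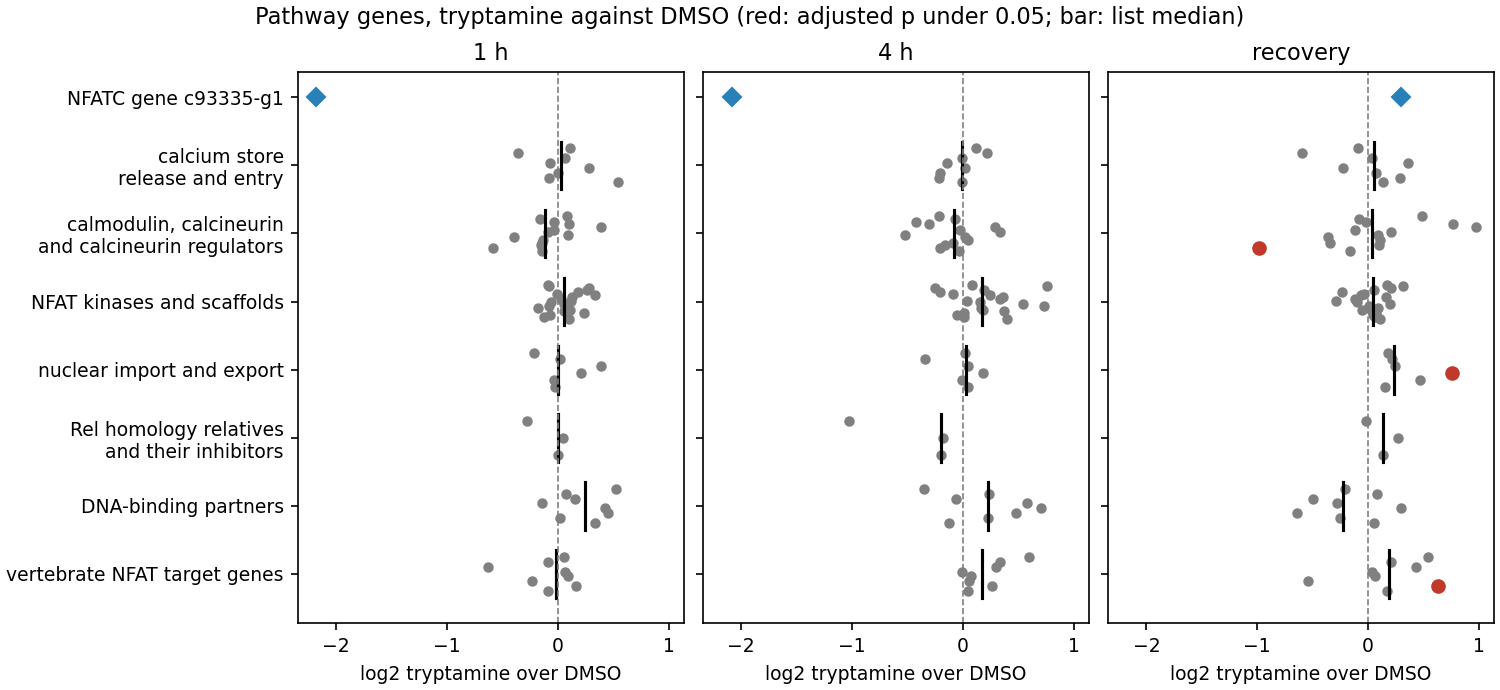
Log2 difference of tryptamine over DMSO (horizontal axes) at 1 h, at 4 h and after recovery for the NFATC gene (blue diamond) and the tested genes of each pathway list (points, red where the edgeR adjusted p is under 0.05), with bars for list medians. The NFATC gene stands at -2.18, -2.08 and 0.30, and 3 pathway genes pass, all after recovery.

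The genes whose pattern over the 18 libraries was most like that of the NFATC gene were found by Pearson correlation of log2 CPM, over 17996 tested genes averaging at least 20 counts. All points share their libraries, and the NFATC gene's low counts add noise to each value. The median correlation was -0.02, and 1 in 100 genes exceeded 0.701. Correlations above 0.8 were found for 20 genes, 2 of which carry a symbol, RNF14 and BIRC8. In order, the 8 named genes were RNF14 c104629-g1 (0.832), BIRC8 c93947-g1 (0.802), CANT1 c103428-g1 (0.795), CNKSR1 c101177-g1 (0.786), PLA2G6 c78372-g1 (0.782), COL1A1 c100522-g2 (0.774), CT45A5 c94801-g1 (0.769) and POT1 c5049-g1 (0.769).

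RNF14 is a ubiquitin ligase and BIRC8 belongs to the inhibitors of apoptosis. CANT1 is a calcium-activated nucleotidase, CNKSR1 a scaffold of Ras signalling, PLA2G6 a calcium-independent phospholipase, COL1A1 a collagen and POT1 a telomere protein. All 8 had their highest mean level in DMSO at 4 h and the next highest in DMSO at 1 h, as a consequence of the choice by likeness, and they are given without a test. PLA2G6 measured 9.83 ± 1.97 CPM with tryptamine and 18.7 ± 1.97 CPM in DMSO sponges at 4 h, and 8.99 ± 0.31 and 8.53 ± 0.14 CPM after recovery (SD, n = 3 each). COL1A1 measured 54.6 ± 16.3 and 119 ± 8.83 CPM at 4 h, and 55.3 ± 18.3 and 52.9 ± 5.91 CPM after recovery, with tryptamine given first in each pair. At 4 h the log2 differences of the 8 genes ran from -1.13 for COL1A1 to -0.12 for CANT1, beside -2.08 for the NFATC gene.

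The 4 most opposite named genes were WDR25 c93914-g1 (-0.835), CLOCK c99036-g2 (-0.833), FOXO3 c101327-g2 (-0.831) and c107723-g1 (-0.826), the last with a yeast identifier for a zinc finger factor. CLOCK, a factor of the circadian clock, measured 36.0 ± 5.93 CPM with tryptamine and 28.2 ± 1.28 CPM in DMSO sponges at 4 h, and 41.4 ± 6.51 and 40.5 ± 2.34 CPM after recovery (SD, n = 3 each). FOXO3, a forkhead factor of stress responses, measured 120 ± 12.8 CPM with tryptamine and 89.1 ± 21.1 CPM in DMSO sponges at 4 h. Among pathway genes the highest correlation was 0.576, for RAN c95205-g2, the GTPase that drives nuclear transport. The order is not stable: over the 12 libraries of 4 h and recovery alone the 8 correlations ran from 0.737 to 0.884, but 0 of the 8 were among the 8 highest named genes there, and 2 were by Spearman correlation.

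**Figure D5:**
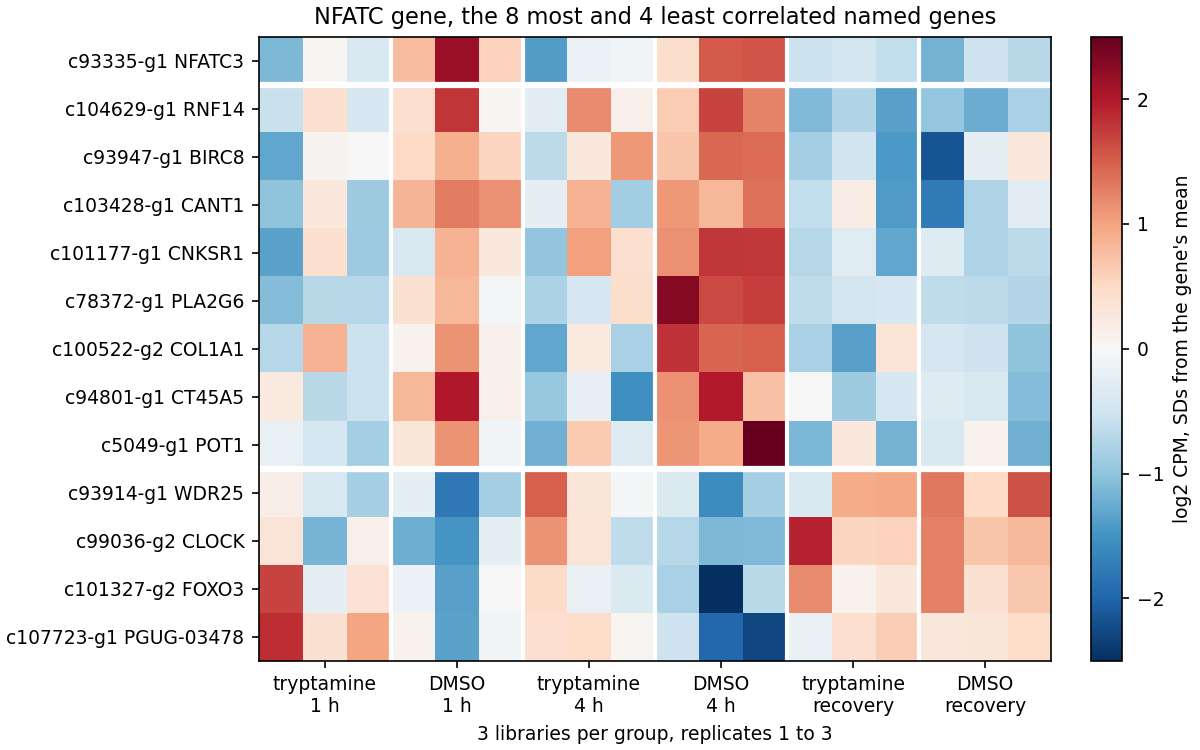
Log2 CPM of the NFATC gene (top row), the 8 named genes of highest and the 4 of lowest Pearson correlation with it, as SDs from each gene's mean (colour) in the 18 libraries (columns, 3 per group). The NFATC gene and the 8 genes are high in DMSO at 4 h, and the 4 opposite genes are low there, with correlations of 0.769 to 0.832 and -0.835 to -0.826.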

How the data were processed

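PolyA RNA of whole juvenile sponges was sequenced in 18 libraries, 3 in each of 6 groups, grouped by the submitters' labels. The authors counted read pairs per gene with featureCounts 2.1.1, per the file headers, and the deposited values are raw counts over a transcriptome assembly. STAR is named in the submitters' processing notes without a version. Pairs with more than 1 mapping position were left uncounted, as the options in the file headers show.

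Counts were filtered with filterByExpr and scaled by TMM, and 24125 genes were fitted over all 18 libraries with the quasi-likelihood test of edgeR 4.0.16 in R 4.3.3, with Benjamini-Hochberg adjustment and a threshold of 0.05. DESeq2 1.42.0, limma-voom (limma 3.58.1), other scalings and filters, a replicate block and single left-out libraries were alternatives. The main fit had no block, and the replicate block took the same shift for a replicate number at every time. CPM for correlations used a prior count of 2. Poisson intervals and the floor of 3 counts cover counting error only, and intervals of log2 differences come from the fit and include the spread between libraries.

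The gene, the pathway and marker lists were chosen with earlier results of these data known. Named pathway genes are the members that passed, or else the one of smallest p, in each list and comparison, and genes described by likeness are the 8 highest and 4 lowest named correlations. Calcineurin, the second calmodulin gene, STIM1, ITPR, GSK3, DYRK1A and the NF-kappa-B genes were named outside this rule for their role.

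The main fit and the permutation test took no pairing of same-numbered libraries, and the replicate block was the only fit that used the replicate number. Deviations of same-numbered libraries from the group means correlated at 0.115, 0.191 and 0.150 at 4 h, and at 0.336, 0.402 and 0.332 at 1 h. At recovery the values were 0.287, 0.0852 and 0.169. Between recovery and 4 h they were -0.161, 0.043 and 0.0612 in the DMSO arm and 0.0585, 0.125 and 0.140 in the tryptamine arm. The recovery values lie close to those at 4 h, so they show no clear difference in pairing between these times.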

Additional observations from a re-analysis of the deposited data

How the results depend on the processing

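At 4 h the difference of the NFATC gene was negative under all 14 alternatives and passed under 3 of them, DESeq2 (-2.06, adjusted p = 0.00947), the replicate block (-2.09, adjusted p = 0.00408) and without DMSO 4 h replicate 1. Left-out libraries gave -2.40 to -1.68 at 4 h, -2.59 to -1.32 at 1 h and -2.86 to -2.32 for DMSO recovery against 4 h, a call that passed under 13 of 14 alternatives and was lost without DMSO recovery replicate 1 (-2.33, adjusted p = 0.0601). For tryptamine recovery against 4 h, 11 of 14 were negative; limma-voom gave 0.044, and left-out libraries gave -0.56 to 0.13, with 0.028 without tryptamine 4 h replicate 2 and 0.13 without replicate 3. The differences after recovery, the mean effect and the difference of effects kept their direction and stayed short of the threshold under every alternative run.

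Pathway genes called at 4 h numbered 1 in DESeq2 and 1 with the replicate block, RUNX2 in both, in fits that called 2.51% and 2.33% of all genes, and 0 to 2 with 1 library left out, the 2 being CSNK1A1 and CSNK1G1 without tryptamine 4 h replicate 1. After recovery 6 were called in DESeq2 and 5 with the replicate block, where 4.78% and 5.51% of all genes were called, 0 to 3 with 1 library left out, and 0 without the libraries of number 2, a setting chosen after seeing the data. The replicate block changed no call of the NFATC gene other than at 4 h, and it draws in part on the 1 h libraries, which chose the gene. The block gave 0.33 for tryptamine against DMSO after recovery and -2.53 for DMSO recovery against 4 h. Of the 8 genes most like the NFATC gene, 2 were kept by Spearman correlation and 0 over the 12 libraries of 4 h and recovery. The cause of these changes was not tested. Counting error is wide in the 12 lower libraries, which had 6 to 25 counts, and the gene's biological coefficient of variation of 41.4% adds to it.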
